A study of Mus musculus with 8 samples.

Results

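The regions described here are the 250 stretches of chromatin that were called open in Alb-D2KO mouse liver and that overlapped no region called in control liver. They were taken whole from the deposited list of that subtraction, out of 8281 regions in both lists, the other 8031 being the regions called in control liver alone, known as RCAs (regions of reduced chromatin accessibility). By the numbers that the peak caller gave to its regions, the 250 are 1.69% of at least 14825 regions called in Alb-D2KO liver. The paper states a smaller number of open areas for that liver, and the discrepancy was not resolved. The bounds per chromosome given below rest on the same region numbers. The measurement was ATAC-seq, in which a transposase inserts sequencing adapters wherever DNA is not wrapped in compact chromatin, in nuclei of frozen liver from adult C57BL/6 mice. There were 4 control libraries, from mice that carry the Cre recombinase, and 4 Alb-D2KO libraries, from mice with floxed Dio2 in which Cre, expressed under the albumin promoter, inactivates Dio2 in hepatocytes. A library started from 50000 nuclei, and both groups therefore carry the Cre transgene. The other cells of the liver keep Dio2, and in bulk nuclei a larger number of cells with an open region cannot be told apart from a more open region in each cell. The sex of the mice is not given in the sources used here, and the depth of the libraries is unknown from the lists. Each list comes from 1 pooled call per genotype, so no region has a replicate error, no animal can be compared with another, and the 95% intervals below (Wilson for a share, Newcombe for a difference of 2 shares) cover counting error over regions only.

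Dio2 encodes the type 2 deiodinase, the enzyme that converts the prohormone thyroxine (T4) into the active thyroid hormone T3 inside cells. T3 acts through nuclear receptors that sit on DNA and recruit coactivators or corepressors, and so bears on how open the chromatin around them is. Open regions in liver are of a few kinds: promoters, often rich in CpG and open in many tissues, and distal elements in introns and between genes, which are more often bound by factors particular to hepatocytes. Both Dio2 itself and its surroundings were checked first. The gene occupies positions 90724552 to 90738438 of chromosome 12, minus strand (mm10), and the nearest of the 9 regions of that chromosome was 8.35 Mb away, an intergenic region with Gm47116 as its nearest gene, while the nearest RCA was 0.930 Mb away, in an intron of Ston2.

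The strength of a region is given by its AUC, the area under the curve of −log10 p over the region, as deposited. The sequences are shown because the results turn on the promoters on chromosome X and on scattered promoters and distal regions of the autosomes. Each is the part of a 150 bp window around the summit of a region that lies inside the region and holds no annotated exon, read from the mm10 assembly (GRCm38.p6) on the strand of the gene, 5′ to 3′. Capitals mark exact matches to the motif letters counted later. On chromosome X these are Foxo4 (chrX:101254083-101254232, plus strand), Tab3 (chrX:85573673-85573822, plus strand), Tbc1d8b (chrX:139684792-139684919, plus strand) and Ap1s2 (chrX:163908899-163909016, plus strand). The first 3 have the highest AUCs among X promoters with at least 90 bases around the summit free of annotated exons, and the last holds the letters of an ETS site.
Foxo4: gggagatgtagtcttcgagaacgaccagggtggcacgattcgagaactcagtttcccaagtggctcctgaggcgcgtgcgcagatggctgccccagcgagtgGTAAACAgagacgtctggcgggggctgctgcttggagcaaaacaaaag
Tab3: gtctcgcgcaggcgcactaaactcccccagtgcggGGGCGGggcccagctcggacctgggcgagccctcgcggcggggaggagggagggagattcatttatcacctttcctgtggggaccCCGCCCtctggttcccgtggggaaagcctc
Tbc1d8b: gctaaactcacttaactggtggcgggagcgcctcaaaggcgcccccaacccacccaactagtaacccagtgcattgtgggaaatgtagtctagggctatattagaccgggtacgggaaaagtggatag
Ap1s2: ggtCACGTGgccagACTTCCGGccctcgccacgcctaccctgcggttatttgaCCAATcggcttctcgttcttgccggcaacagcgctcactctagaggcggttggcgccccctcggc
From the autosomes, Ajuba (chr14:54577590-54577739, minus strand), Ext2 (chr2:93822572-93822695, minus strand) and Zfp938 (chr10:82241281-82241378, minus strand) stand for promoters, the first and the second being among the strongest there and the third holding the ETS letters. Hpcal1 (chr12:17741872-17742021, plus strand) and Ppargc1a (chr5:51527945-51528094, minus strand) stand for regions in introns, the first as the strongest one without copies outside a stretch of chromosome 4 with 17 members and the second as the only region near a gene of the lists examined.
Ajuba: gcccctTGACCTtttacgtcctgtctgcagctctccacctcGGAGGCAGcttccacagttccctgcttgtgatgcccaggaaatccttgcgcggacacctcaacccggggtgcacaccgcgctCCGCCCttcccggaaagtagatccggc
Ext2: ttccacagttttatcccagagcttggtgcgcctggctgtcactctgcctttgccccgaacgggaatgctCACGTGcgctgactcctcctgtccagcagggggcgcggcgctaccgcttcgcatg
Zfp938: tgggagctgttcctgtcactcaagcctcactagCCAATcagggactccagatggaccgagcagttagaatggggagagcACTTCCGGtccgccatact
Hpcal1: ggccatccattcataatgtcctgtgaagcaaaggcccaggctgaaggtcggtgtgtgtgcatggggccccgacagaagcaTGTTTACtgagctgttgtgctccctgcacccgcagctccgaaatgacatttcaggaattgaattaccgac
Ppargc1a: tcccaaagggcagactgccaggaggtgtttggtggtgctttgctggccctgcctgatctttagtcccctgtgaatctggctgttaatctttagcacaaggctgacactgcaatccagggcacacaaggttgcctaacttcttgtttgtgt

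Chromosome X held 15 of the 250 regions, or 0.0877 per Mb, within the range of the autosomes (0.0163 to 0.217 per Mb), while its RCAs were sparse, 0.234 per Mb against 2.13 to 5.63 on the autosomes. The X regions were 6% of the list, against 40 of 8031 RCAs (0.498%), a difference of 5.50 percentage points (3.16 to 9.17). Among the regions called in control liver on X, the RCAs were 31 to 35.1%, within the range of the autosomes (30 to 44.5%). Few regions were called on X in Alb-D2KO liver, between 67 and 95 by the region numbers, and the 15 found only in that genotype were 15.8 to 22.4% of them. On the autosomes that share was at most 3.40%, on chromosome 4, leaving out chromosome 19, where a single region leaves the share unbounded. The lower bound of such a share comes from the numbers free between neighbouring chromosomes and the upper from the first and last region seen.

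**Figure D1:**
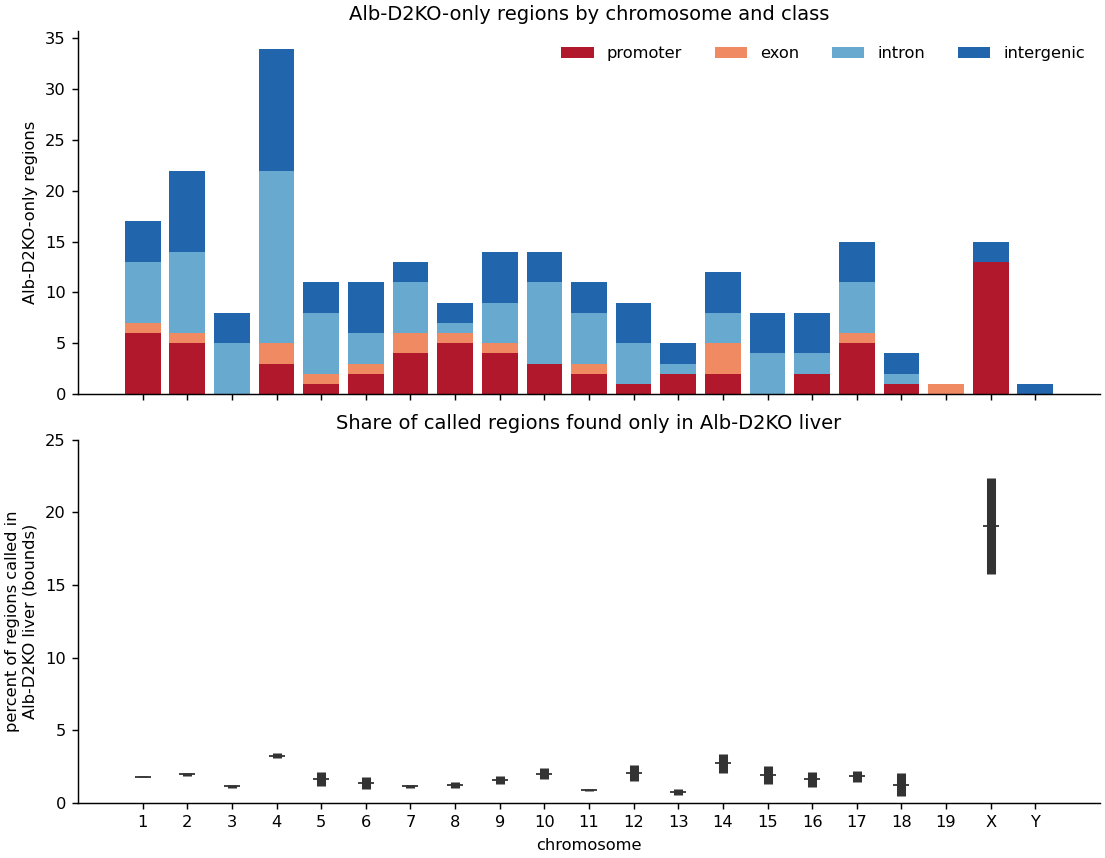
The upper panel counts the Alb-D2KO-only regions on each chromosome by class. The lower panel gives, in percent, the lower and upper bound of their share among all regions called in Alb-D2KO liver on that chromosome, with a tick midway between the bounds and with 19 and Y left out because each has 1 region. Chromosome X lies between 15.8 and 22.4%, and the highest autosome is chromosome 4 with at most 3.40%.

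Of the 15 X regions, 13 overlapped the 200 bp on either side of a start site of a protein-coding gene (86.7%, 62.1 to 96.3), and none was exonic or intronic. The other two were intergenic, 1011 bp from the start site of Maoa, the monoamine oxidase A gene (AUC 207), and 424 bp from that of the pseudogene Zfp36l1-ps (AUC 207). All 15 X regions thus lay within 1.1 kb of a start site, where 32.4% of the whole list lay within 1 kb. The RCAs on X leaned the same way, 28 of 40 being at coding promoters (70%), and the interval of the difference between the lists on X held 0 (16.7 points, −10.6 to 34.8). Of all 54 members at coding promoters, 24.1% were on X, against 2.09% of the 1338 RCAs at coding promoters, a difference of 22.0 points (12.5 to 34.9).

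The X promoter with the highest AUC was that of Foxo4 (363), a forkhead transcription factor of the insulin pathway, and its region ended short of the annotated transcript, with the summit 371 bp upstream of the start site. It was followed by Morf4l2 (343), a chromatin protein of histone acetyltransferase complexes, whose summit was 8 bp downstream of the start. Haus7 (328), a subunit of the augmin complex of the mitotic spindle, had its summit at the start site itself. The next 2 were Taf1 (290), the largest subunit of the general transcription factor TFIID, and Tab3 (284), an adaptor of the TAK1 kinase. The Taf1 region covered a coding exon and 5′ UTR, with its summit 48 bp downstream of the start, and the Tab3 region lay upstream of the gene, with its summit 275 bp away. The remaining 8 had AUCs between 221 and 270. Among them, Amer1 (270), a regulator of Wnt signalling, had its summit 224 bp downstream of the start, the farthest of the X promoters in that direction.

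Htatsf1 (224), a factor of transcript elongation and splicing, and Hmgn5 (237), a protein that binds nucleosomes, add to the X genes whose products work on chromatin or transcription. Utp14a (247) serves ribosome assembly in the nucleolus, and C1galt1c1 (238) encodes the chaperone of a galactosyltransferase of O-glycans. Wdr44 (221), Tbc1d8b (247) and Ap1s2 (236) encode proteins of vesicle traffic, the last a subunit of the clathrin adaptor AP-1. The regions of Utp14a and C1galt1c1 together span 9.62 Mb, yet carry consecutive region numbers, so that no other region was called between them in Alb-D2KO liver. The same held for Morf4l2 and Tbc1d8b, over 2.94 Mb. No region of either list lay within 5 kb of Xist, the gene of the non-coding RNA of the inactive X. With 15 members and 40 RCAs over the 171 Mb of X, such an absence is usual for any single gene. Regions open in both genotypes are in neither list.

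By composition the X promoters were ordinary CpG-rich promoters. Their GC content was 61.3% at the median (quartiles 57.6 and 64.8, n = 13), and 11 of 13 met a CpG-island-like limit, set here at 50% GC or more with an observed over expected CpG ratio of 0.6 or more. Among the 28 RCAs at coding promoters of X the median GC was 63.4%, and 26 met that limit. The 2 X promoters under the limit were Haus7 (ratio 0.582) and Amer1 (0.591). For none of the X regions was a second copy found in the genome. The search did not start from bases masked as repeats, which were 88.4% of the Zfp36l1-ps region.

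**Figure D2:**
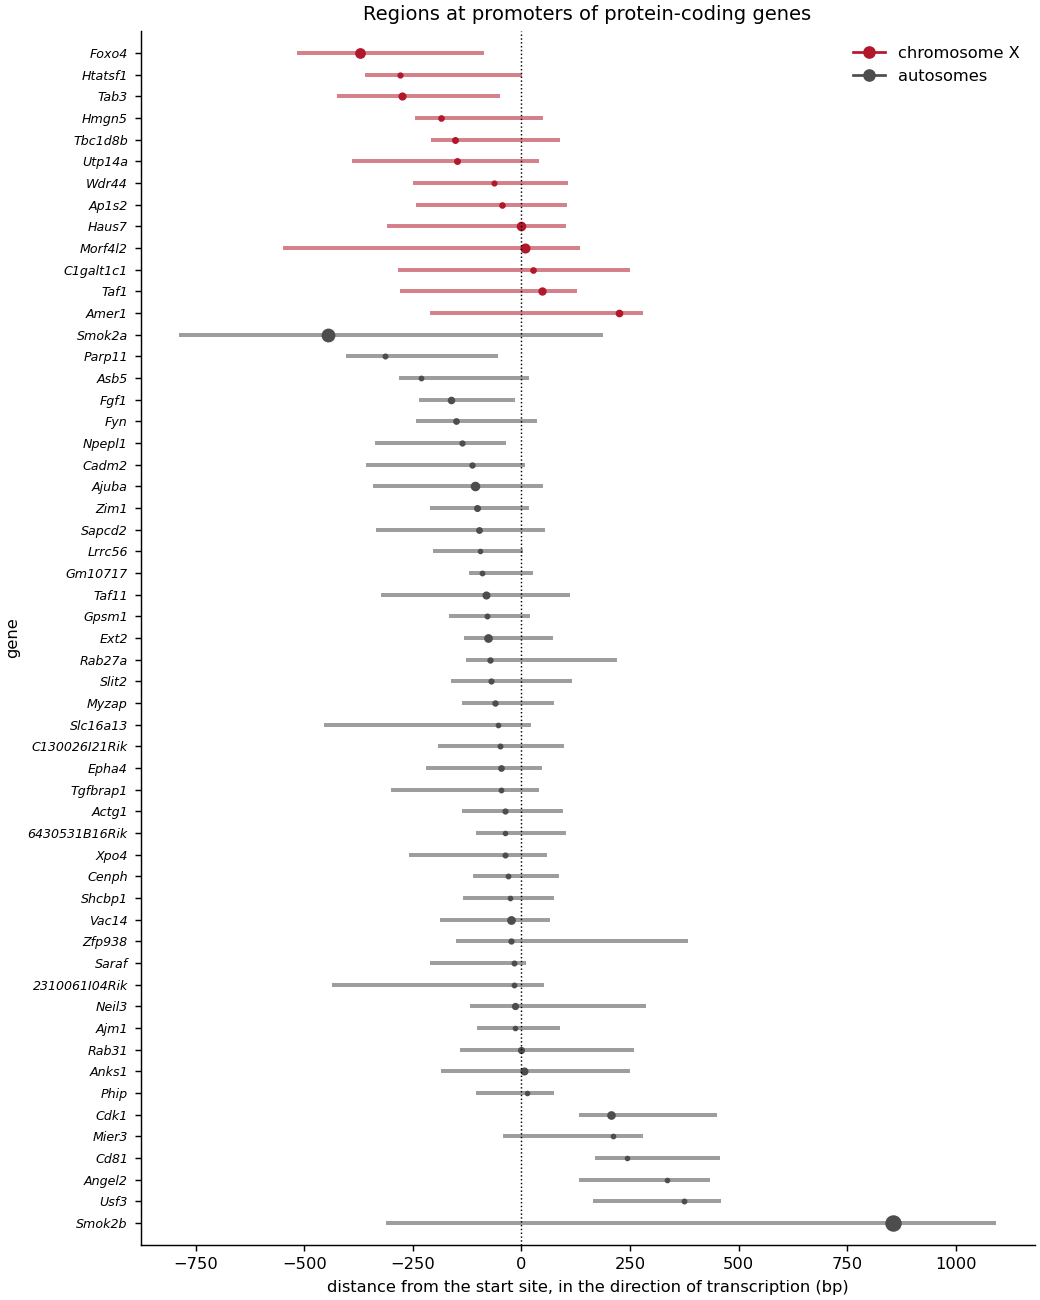
Each bar is a region at the promoter of a protein-coding gene, drawn in bp from the start site of that gene nearest the summit, in the direction of transcription. Each dot is the summit, larger with a higher AUC (X in red, autosomes in grey). The 55 genes share 54 regions, since Anks1 and Taf11 are marked by 1 region, and 40 of 54 summits lie upstream of the start site.

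With chromosome X set aside, the promoter share of the list came close to that of the RCAs. Over the whole genome 54 members were at coding promoters (21.6%), against 16.7% of RCAs, a difference of 4.94 points (0.215 to 10.5). Without X, a comparison chosen after seeing the data, 41 of 235 members were at coding promoters (17.4%), against 1310 of 7991 RCAs (16.4%), and the difference of 1.05 points had an interval that held 0 (−3.34 to 6.48). For all promoters the difference went from 4.98 points (−0.0132 to 10.7) to 1.27 points (−3.47 to 6.94). The members had lower AUCs than the RCAs (median 226 against 278), though the AUCs come from separate calls of unknown depth. The shares were also set side by side among regions with an AUC under 300, where the medians still differed (223 against 239). There the difference at coding promoters was 7.19 points (2.25 to 13.1) with X and 3.90 points (−0.725 to 9.68) without it.

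The 41 coding promoters on the autosomes and their genes were of many kinds. Apart from Smok2a and Smok2b, the strongest was Ajuba (AUC 326), on chromosome 14, a LIM domain scaffold protein of cell junctions and Hippo signalling. Vac14 (303), the scaffold of the kinase that makes the lipid PI(3,5)P2, and Ext2 (301), a glycosyltransferase of heparan sulfate, followed. Cdk1 (299), the kinase of mitotic entry, was next, with a summit 206 bp downstream of the start and a region that overlapped a coding exon. All other autosomal coding promoters had AUCs of 281 or less, and the median of the 41 was 222 (quartiles 212 and 249), against 247 (237 and 290) for the 13 on X.

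Other genes of cell division among the promoters were Cenph (212), a protein of the kinetochore, Shcbp1 (207), which is made in dividing cells, and Sapcd2 (243), which orients the mitotic spindle. Neil3 (256) encodes a DNA glycosylase of base repair. Genes of signalling included Fyn (240), a kinase of the Src family, Epha4 (239), a receptor of ephrins, Slit2 (223), a secreted guidance ligand, and Fgf1 (266), the fibroblast growth factor, whose promoter region on chromosome 18 lies within Arhgap26. Gpsm1 (216) encodes a modulator of G proteins, and Tgfbrap1 (212) a protein that binds TGF-β receptors and tethers endosomes. These are descriptions by what each gene is known for, and no such group was tested.

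Genes of vesicles and membranes were Rab31 (253) and Rab27a (229), small GTPases, Saraf (217), which limits calcium entry at the endoplasmic reticulum, Cd81 (204), a tetraspanin, and Slc16a13 (208), a monocarboxylate transporter. Actg1 (222) encodes cytoplasmic γ-actin, and Cadm2 (228) and Myzap (229) encode proteins of cell contacts. In the nucleus, Taf11, a second TFIID subunit, shares with Anks1 a region (281) on chromosome 17 that covers both start sites of the divergent pair. Xpo4 (220) encodes an exportin, Zfp938 (226) and Zim1 (249) zinc finger proteins, the latter from an imprinted gene, and Mier3 (209) a corepressor protein. Usf3 (214) and Parp11 (218) had regions outside annotated exons, with summits 374 bp downstream and 315 bp upstream of the start.

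Phip, a protein with a bromodomain, was the only gene with a member both at its promoter (204) and in its 3′ UTR (231), and these carried consecutive region numbers over 107 kb. The remaining coding promoters were those of Angel2 (206), Ajm1 (205), Npepl1 (224), Lrrc56 (204), Asb5 (211), 2310061I04Rik (213), 6430531B16Rik (203), C130026I21Rik (217) and Gm10717 (212). The Gm10717 region, near the start of chromosome 9, was unlike the others, with a GC content of 34.3% and 90.7% of its bases masked as repeats. The C130026I21Rik region had 11 near-identical copies elsewhere, and its nearest member, 5931 bp away in an intron of that gene, had 15.

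The 54 coding-promoter members were picked for a coding start site within 200 bp of the region. Their closeness to start sites therefore follows in large part from that choice. Summit distances, here and above, are from the annotated start site nearest the summit, and none were computed for RCAs. The summits lay 48 bp upstream of the start site at the median (quartiles 105 and 3.5 bp upstream), 41 were within 200 bp of it, and 43 regions held the start site. A start site on the other strand within 1 kb, as at divergent promoters, was found for 9 of 54 (16.7%), against 14.7% of RCAs at coding promoters. The GC content was 62.0% (median) against 61.7%, and 31 of 54 were CpG-island-like (57.4%) against 56.1%. The interval of the last difference held 0 (1.35 points, −12.2 to 13.9).

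The 7 promoters of non-coding genes had AUCs from 202 to 340. They belonged to Gm5524 (208), Gm37027 (202), Gm9269 (266), Gm13284 (264), Gm13021 (218), Gm40377 (227) and, in a stretch of chromosome 4 where 17 members lie between 145.4 and 147.5 Mb, Gm13228 (340). Gm9269 and Gm13284 had 11 and 13 near-identical copies.

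**Figure D3:**
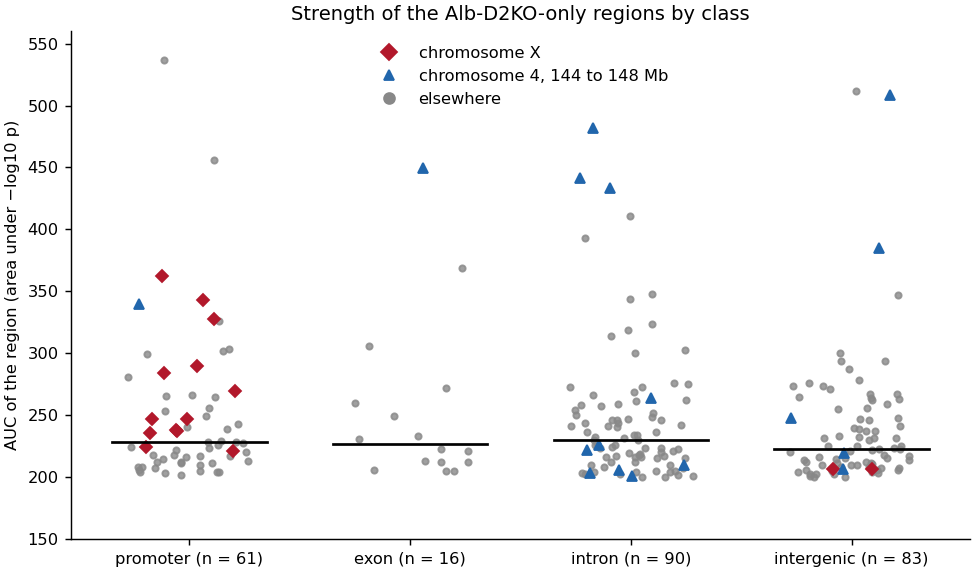
Each point is an Alb-D2KO-only region, with its AUC on the vertical axis (from 150), placed by class, and black lines are medians. The medians of the 4 classes lie between 223 and 230, and the X regions (red diamonds) are nearly all promoters, while the chromosome 4 stretch (blue triangles) supplies many of the strongest intronic and intergenic regions.

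The 16 exonic members had a median AUC of 227. The strongest beyond the chromosome 4 stretch was in Gm9732 on chromosome 14 (369), in a non-coding exon with 12 near-identical copies on its chromosome. Csf2ra (306), the α chain of the GM-CSF receptor, held the only member of chromosome 19, in its 3′ UTR. Rassf4 (272), a Ras association domain protein, Tlnrd1 (260), a talin rod domain protein that bundles actin, and Hic1 (212), a transcriptional repressor, had members in coding sequence, with GC contents of 63.6, 66.1 and 71.4%. Svop (212), related to a synaptic vesicle protein, had one over coding sequence and 3′ UTR. Members in 3′ UTRs were also found in Paqr8 (223), a membrane progesterone receptor, and Slc8a1 (205), a sodium and calcium exchanger. Anpep (205), aminopeptidase N, Tmem260 (206), Proser2 (221) and the non-coding genes Gm2990 (233), Gm12923 (213), Gm34730 (249) and Platr16 (450) had members in non-coding exons.

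The 90 intronic members fell in 79 genes, and these genes were long. Hosts over 100 kb held 50 of the 90 (55.6%), against 1306 of 3216 intronic RCAs (40.6%), a difference of 14.9 points (4.52 to 24.9). The median host was 120 kb long for members and 72.0 kb for RCAs. The difference was still 11.9 points (0.944 to 22.6) without the chromosome 4 stretch, 13.3 points (1.62 to 24.4) for protein-coding hosts and 20.5 points (9.47 to 31.3) with each host gene counted once, all 3 settings chosen after seeing the data. Genes named here after their values were seen were Ank3, the ankyrin G gene, with 2 members (254 and 205) and no called region between them, Nav2, a neuron navigator, with 2 (250 and 202), Crybg1, with 2 (261 and 232), and Magi2 (227), Ptprt (224), Camta1 (208) and Kcnab1 (257), each with 1.

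Hpcal1, a neuronal calcium sensor, held the strongest intronic member outside the chromosome 4 stretch (AUC 411, on chromosome 12 from 17741672 to 17742342, 13446 bp from the nearest start site, GC 51.6%). Gm49692 (393) had 1 near-identical copy 1.18 Mb away, and Sfi1 (348), a centrosome protein gene on chromosome 11, had 1 outside that chromosome. Pdia6, a protein disulfide isomerase of the endoplasmic reticulum, was the nearest gene of the strongest intergenic member outside chromosome 4 and the Smok2 cluster (347, on chromosome 12 from 17258466 to 17258774, 7770 bp from the gene). Intronic members had their nearest start site 7325 bp away at the median and intergenic ones 9683 bp, against 5538 and 8930 bp for RCAs. Of the 83 intergenic members, 30 were within 5 kb of a gene and 7 were more than 50 kb from any.

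Within 5 kb of the gene body, the list reached 182 of 22028 protein-coding genes, 0.826%. Of these genes, 44 also had an RCA within 5 kb (24.2%), close to the 21% of all coding genes that had one, and they were 0.951% of the 4625 genes near an RCA. Of 315 matched genes in 10 lists of metabolic, regulatory and response genes, 1 had a member within 5 kb (0.317%, 0.0561 to 1.78), an interval that held the 0.826% of all coding genes, while 167 had an RCA (53.0%). That gene was Ppargc1a, which encodes the coactivator PGC-1α of mitochondrial and fasting metabolism. Its member lay in an intron on chromosome 5 from 51527874 to 51528280, 13581 bp from the nearest start site, with an AUC of 300.5 and a GC content of 51.1%.

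List by list, the count near a member was 1 of 48 for fatty acid and triglyceride metabolism, the list that holds Ppargc1a. It was 0 of 26 for thyroid hormone signalling, 0 of 34 for cholesterol and bile acid metabolism, 0 of 24 for glucose metabolism and 0 of 38 for drug metabolism enzymes. It was also 0 of 30 for hepatocyte transcription factors, 0 of 19 for the circadian clock, 0 of 39 for DNA methylation and heterochromatin, 0 of 33 for acute phase and complement and 0 of 28 for immediate early genes. With lists of this size the interval of a count of 0 reaches 8.97 to 16.8%, far above the background, so none of the lists taken alone differed detectably from all genes. The RCAs reached between 32.1% of the immediate early genes and 79.2% of the glucose metabolism genes.

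Markers of liver cell types were checked in the same way, and 0 of 43 had a member within 5 kb, with an interval that reaches 8.20%. The 43 were 7 of hepatocytes, 5 of cholangiocytes, 7 of macrophages, 6 of endothelial cells, 7 of stellate cells and fibroblasts, 6 of lymphocytes and 5 of testis or germ cells. An RCA was near 6 of the 7 hepatocyte markers, 1 cholangiocyte, 2 endothelial and 2 lymphocyte markers, and none of the macrophage, stellate and fibroblast, or testis and germ cell markers. By the start of the symbol, the nearest genes included 4 zinc finger genes (Zfp280d, Zfp618, Zfp938 and the pseudogene Zfp36l1-ps), which is 1.6% of members against 0.859% of RCAs. They included 4 solute carriers (Slc16a13, Slc30a8, Slc5a9 and Slc8a1), 1.6% against 2.33%, and 2 transmembrane protein genes (Tmem260 and Tmem38b), 0.8% against 0.660%. The interval of the difference held 0 for these 3 families. These counts go by the nearest gene of any type. In the chromosome 4 stretch the nearest coding gene of several members was a zinc finger gene not counted here, such as Zfp992 (2565 bp away) or Zfp981 (3426 bp). Over the whole list the nearest genes also included 1 vomeronasal receptor (Vmn2r122), 0.4% against 0.0249%, and 1 gene of the 5S family (n-R5s93), 0.4% against 0.125%. No nearest gene had the symbol of a cytochrome P450, a UDP glucuronosyltransferase, an olfactory receptor, a ribosomal protein or a histone, families that were nearest to between 0.0374% (UDP glucuronosyltransferases) and 0.523% (cytochromes P450) of RCAs, all under the 1.51% that the interval of a count of 0 among the members reaches. None had a microRNA or small nucleolar RNA symbol either, although by its annotated type the nearest gene was a microRNA for 3 members and a small nucleolar RNA for 3, all under other symbols.

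Predicted genes of the Gm series were the nearest gene of 55 members (22%), against 15.5% of RCAs, a difference of 6.47 points (1.71 to 12.1), and genes ending in Rik were that of 14 (5.6%, against 4.58%). Protein-coding genes were the nearest gene of 177 of the 247 members on a sequence with any gene (71.7%), against 79.6% of RCAs, a difference of −7.96 points (−13.9 to −2.63). All 17 members of the chromosome 4 stretch had a non-coding gene or pseudogene as nearest gene, many of them of the Gm series. Neither difference was computed without that stretch, so both may rest largely on it, and neither is shown for the rest of the list.

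**Figure D4:**
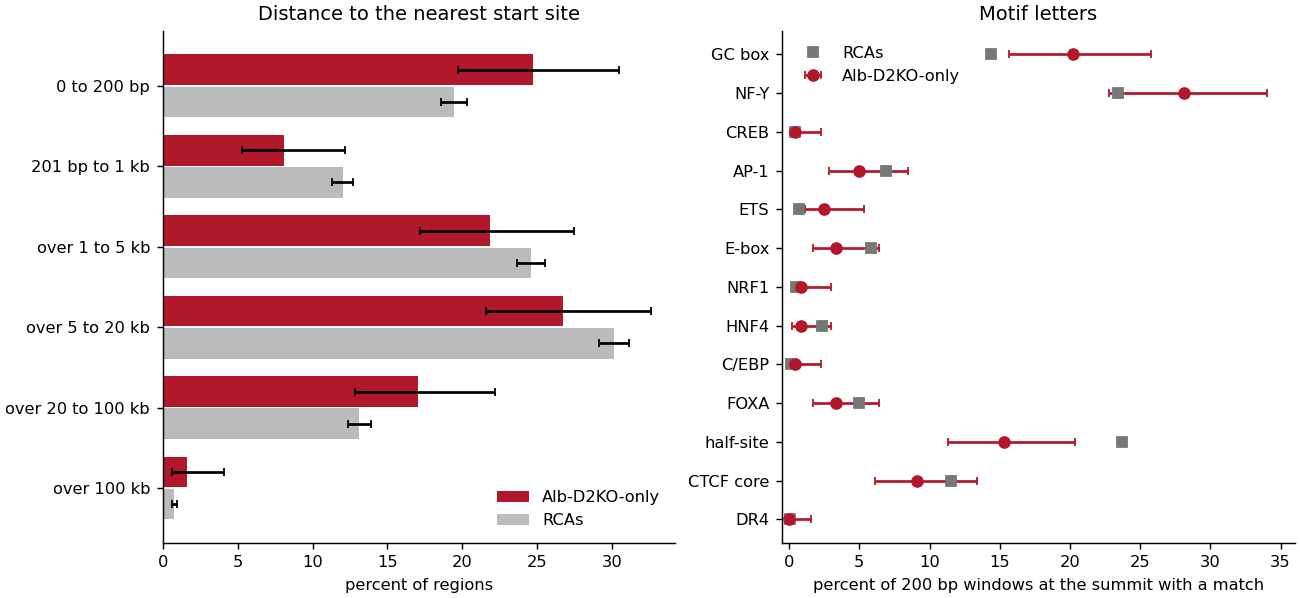
The left panel gives the percent of regions in each bracket of distance to the nearest start site, for Alb-D2KO-only regions (red) and RCAs (grey), with Wilson intervals. The right panel gives the percent of 200 bp summit windows with a match to each motif, with Wilson intervals for the Alb-D2KO-only regions, and the nuclear receptor letters AGGTCA (labelled half-site) lie at 15.3% against 23.7% in RCAs.

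Motifs were counted as exact letters on both strands in the 200 bp around the summit, in the 242 members and 8021 RCAs of chromosomes 1 to 19, X and Y. The nuclear receptor letters AGGTCA were in 15.3% of member windows and in 23.7% of RCA windows, a difference of −8.45 points (−12.5 to −3.29). The direct repeat of 2 such sites 4 bases apart, the classical thyroid hormone response element, whose matches also count as AGGTCA, was in none of the 242 and in 2 RCAs. The GC box GGGCGG, bound by Sp1, was in 20.2% against 14.4%, a difference of 5.86 points (1.21 to 11.4), and the ETS letters CCGGAAGT in 2.48% against 0.736% (1.74 points, 0.389 to 4.57). At coding promoters alone the GC box was in 51.9% of members and 43.5% of RCAs (8.35 points, −4.92 to 21.4).

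All 6 members with the ETS letters were at coding promoters, 3 on X (Wdr44, Taf1 and Ap1s2) and 3 on autosomes (Zfp938, Cenph and the Anks1 and Taf11 promoter). They were 11.1% of the coding promoters against 3.14% among RCAs, a difference of 7.97 points (1.96 to 19.1). AGGTCA was in 2 of the 54 coding promoters (3.70%, against 13.9%) and in 35 of the other 188 regions (18.6%, against 25.7%), lower than in RCAs by intervals of −13.5 to −1.19 and −12.1 to −0.832 points. At coding promoters the CCAAT letters of NF-Y were in 33.3% against 20.8% (12.6 points, 1.24 to 26.0), and over the whole list in 28.1% against 23.4%.

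For the other letters the interval of the difference over the whole list held 0, although outside coding promoters the E-box letters were in 1.60% against 5.58% (−5.18 to −0.950 points), and at coding promoters the C/EBP letters were in 1 of 54 against 1 of 1338 (0.214 to 9.70 points). They were TGTTTAC of FOXA (3.31% against 4.99%), CAAAGTCCA of HNF4 (0.826% against 2.36%), TTGCGCAA of C/EBP (0.413% against 0.150%), TGANTCA of AP-1 (4.96% against 6.93%), TGACGTCA of CREB (0.413% against 0.449%), CACGTG of E-boxes (3.31% against 5.81%), GCATGCGC of NRF1 (0.826% against 0.511%) and the CTCF core GGNGGCAG (9.09% against 11.5%). Letters of one motif can overlap those of another, and the intervals were not adjusted for the 13 motifs, and a match is a description, not a site.

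**Figure D5:**
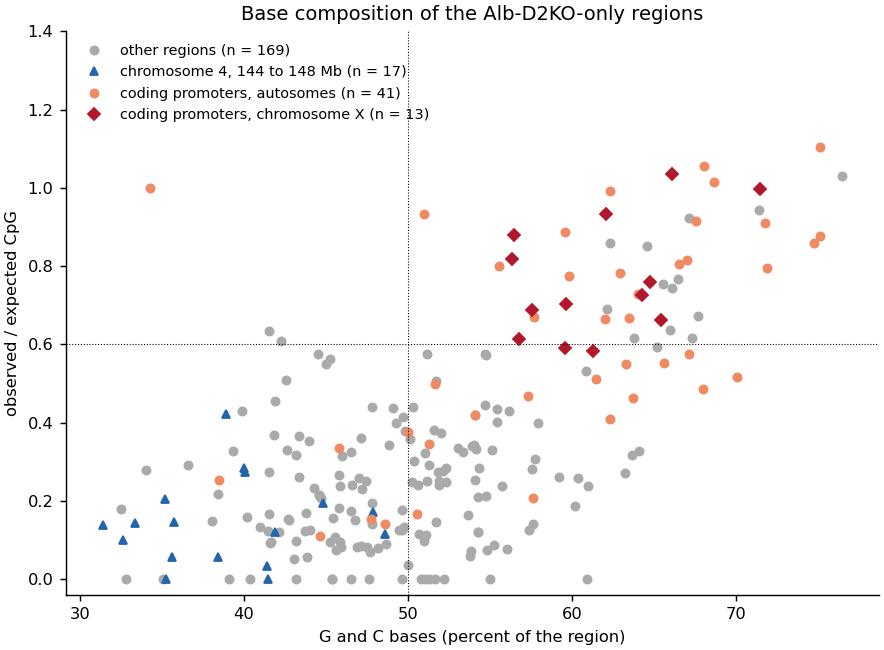
Each point is an Alb-D2KO-only region, with its GC content in percent against the observed over expected CpG ratio. Dotted lines mark the CpG-island-like limits of 50% and 0.6. The coding promoters of chromosome X (red diamonds) group at the upper right, and the regions of the chromosome 4 stretch (blue triangles) at the lower left.

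Base composition over the whole list was 51.0% GC at the median (quartiles 44.9 and 57.7, n = 242), against 51.9% (47.8 and 56.6) in RCAs, so that the middle values were alike and the spread was wider. Promoter members had 61.3%, exonic 50.8%, intronic 48.8% and intergenic 47.6%, the last 2 under the 50.5 and 50.6% of RCAs of the same class. The flanks 1000 bp away had 45.9%. Members with more than 50% of their bases masked as repeats were 16 of 242 (6.61%), against 2.02% of RCAs, a difference of 4.59 points (2.07 to 8.46), and 10 of 225 (4.44%) without the chromosome 4 stretch (2.43 points, 0.394 to 5.99).

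Near-identical copies, matching 80% or more of a region at 95% identity or more, were found for 16 of the 242 members, 14 of them with a copy on the same chromosome and 7 in the chromosome 4 stretch. Outside that stretch 9 of 225 members (4%) had copies, against 0.549% of RCAs, a difference of 3.45 points (1.56 to 6.88). These were the C130026I21Rik pair, Sfi1, the Gm49692 region, the Gm9269 promoter and the region near Gm49698 on chromosome 12, Gm9732, Gm13284 and a region 42830 bp from Gm16505 on chromosome 13. Reads from such copies are hard to place, and their part in these regions was not tested. The search did not start from bases masked as repeats, so copies of mostly masked regions could be missed. A further 8 members lay on 7 unplaced or unlocalised contigs (3.2% of the list, against 0.125% of RCAs), where no sequence was read.

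Most members stood alone. No other member lay within 100 kb of 222 of the 250, and the median gap between neighbours was 5.94 Mb. Groups of 3 or more held 16 members in 4 groups, all in the chromosome 4 stretch and at Smok2a and Smok2b, so that outside those places the list held only 6 pairs within 100 kb. The pairs were those of C130026I21Rik, Ank3, Gm49692, Trappc12, the Sema5b upstream region and 1 contig. Between the first and the last member of the chromosome 4 stretch, 17 of 68 regions called in Alb-D2KO liver were members (25%), and in the 18719 bp of the Smok2a and Smok2b group 4 of 6. Without that stretch chromosome 4 held 7.30% of the members and 7.43% of the RCAs.

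Runs of consecutive region numbers, with no shared region between, counted 33 members in 15 runs. Beyond those already given, they joined Klk2-ps with Klk1b4, kallikrein genes of chromosome 7, over 289 kb, Shcbp1 with the region near n-R5s93 on chromosome 8 over 251 kb, and the 2 Crybg1 members over 105 kb. The Sema5b pair, upstream of a semaphorin gene on chromosome 16, lay 20705 bp apart, the nearer region being 663 bp from the gene and the farther one 9888 bp from 1600019K03Rik.

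Members were also placed against the regions that were lost, without a background of random positions to judge the distances by. The median distance to the nearest RCA was 150 kb (quartiles 41.3 and 406 kb, n = 245), and 9 of 250 members were within 1 kb of one (3.6%, 1.91 to 6.70), matched by 9 RCAs (0.112%). The closest was at Ext2, where the member (AUC 301) and an RCA (AUC 229, from 93822077 to 93822368) both marked the promoter, 130 bp apart. Next came the region near Gm16505 (205, with an RCA of 215 at 131 bp), the Rab27a promoter (229, with an RCA of 399 at 155 bp) and an intron of Cdk15, a cyclin-dependent kinase gene (244, with an RCA of 362 at 160 bp). At each of these places the lists hold 2 neighbouring stretches, 1 from each genotype. The subtraction makes this so for any member beside an RCA.

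The remaining 5 were 303 to 521 bp from their RCA. They were the Fgf1 promoter (266, RCA 522), a region 6365 bp from Wrnip1 (294, RCA 254), an intron of Trappc12, a gene of vesicle tethering (212, RCA 272), a region near AC166360.1 in the Smok2a group (274, RCA 363) and the Vac14 promoter (303, RCA 258). The RCA had the higher AUC in 6 of the 9 and the member in 3, Ext2, Wrnip1 and Vac14, though the 2 AUCs come from separate calls.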

How the data were processed

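Nuclei of 4 control and 4 Alb-D2KO livers were profiled by ATAC-seq. Per the submitters' processing notes the authors used FastQC, Picard, BWA 0.7.17 and Genrich 0.6 on mm10, called regions per genotype on pooled libraries and subtracted one genotype from the other. Of the deposited columns, the score (capped at 1000), the signal (AUC of −log10 p over a region), the −log10 q at the summit and the summit offset were used as the authors gave them. Depth is unknown, and calls have no replicates. Regions were classed in the order promoter (200 bp on either side of a start site), exon, intron and intergenic with GENCODE M21, while the methods name another release. Bases were read from GRCm38.p6 with pysam 0.24.0, and copies were sought with megablast 2.17.0, for the 242 regions on assembled chromosomes. The search for copies did not start from bases masked as repeats. Region numbers bounded the number of calls per chromosome. Functions were tested on simulated data.

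Genes named were those at coding promoters, in exons, nearest to the 15 highest AUCs, within 1 kb of an RCA, in groups of 3 or more, or on a list within 5 kb. Further genes (long hosts such as Ank3, symbol families, pairs and runs, and the X regions outside coding promoters) were named after their values were seen. The members and lists were chosen with earlier results of these data known, and no p-value was computed. Alternatives covered windows, AUC limits, distances, copies and the chromosome 4 stretch. Those without chromosome X, those on X, host genes and runs, and the comparison under an AUC of 300 were chosen after seeing the data. The comparison near chromosome starts was not planned either.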

Additional observations from a re-analysis of the deposited data

How the results depend on the processing

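Of 68 alternatives, 45 left their value inside its interval (for counts, within 1.5 times) and 23 moved it. No paired analysis was possible because the calls pooled the animals of a genotype and replicate numbers follow accession order, and no animal could be left out. Promoters were 32.4% of regions with a window of 1000 bp, 46.4% with 3000 bp and 18.8% when the summit decided the class. With 3000 bp, exonic regions were 2%, intronic 25.2% and intergenic 26.4%, and with coding genes only, intronic were 28.8% and intergenic 45.2%. Regions with a copy were 10.7% at 90% identity over 50% of the region, 2.48% at 98% over 80% and 4% without the chromosome 4 stretch. Regions near an RCA were 8.4% at 5 kb, 13.2% at 10 kb, 1.6% with RCAs of an AUC of at least 300 and 6.85% for regions of at least 250. Groups with gaps of 500 kb held 12%. At an AUC of at least 300, X held 10.3%, a setting chosen after seeing the data. Median GC was 49.2% and masked bases 10.1% at an AUC of at least 250, and GC of the flanks was 45.9%. At q of at most 0.001, 115 regions were left. Coding genes were 119 by start sites within 5 kb and 293 by gene bodies within 20 kb. Unknown depth and single calls limit all of these values.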

Other observations

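Regions lay more often near the start of a chromosome, the centromeric end of the mouse autosomes, than RCAs did. Within 5 Mb of it were 9 of 242 members (3.72%) and 142 of 8021 RCAs (1.77%), a difference of 1.95 points (0.171 to 5.16). Among them were the Shcbp1 promoter on chromosome 8, the Gm10717 promoter on chromosome 9 and the Sfi1 intron on chromosome 11. Bases masked as repeats ran from 0% of the Shcbp1 region to 90.7% at Gm10717 and 100% of the only chromosome Y member, also among them. The comparison was not planned, and it was not repeated without chromosome Y, whose only member is among the 9. With a lower end of the interval at 0.171 points, the difference may rest on that member. Members without any masked base were also more frequent, 42.6% against 35.8% of RCAs (6.78 points, 0.624 to 13.2), so that the list held larger shares than the RCAs did at both ends of the repeat content. Members were also narrower (median width 267.5 bp against 326 bp), and a short region more easily holds no masked base. The part of width in this difference was not tested.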
